A study of Mus musculus with 4 samples.

Results

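Gap junction and sodium pump transcripts were read in the ventricular muscle of mice with and without the cation channel gene Trpc6. The genes are 4 connexin genes (Gja1, Gja5, Gja4 and Gjc1) and 4 genes of the sodium-potassium pump and its regulators (Atp1b1, Atp1b2, Fxyd1 and Fxyd5). They were taken by name from the array's platform annotation, each has 1 probe, and they are 8 of the 19321 genes to which that annotation gives a symbol. Total RNA of 4 samples was labelled with Cy5 and read on 1 array per sample, with 2 samples from wild-type mice and 2 from Trpc6-/- mice, all males of the strain 129SV. The labels call the allele a genetic deletion and a knockout. The age of the mice, how the allele was made and whether a sample is 1 animal or a pool are not given in the sources used here. Separate animals are not stated, so the p-values reflect only how far these samples spread, and that spread may be technical. Precision is limited by the small number of arrays throughout.

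Gap junctions are clusters of channels that join the cytoplasm of neighbouring cells. Each channel is built from connexin proteins of both cells, and in the heart these channels carry the action potential from myocyte to myocyte at the intercalated disc. The sodium-potassium pump exports sodium and imports potassium against their gradients. It pairs a catalytic alpha subunit with a glycosylated beta subunit, and small FXYD membrane proteins tune its activity. In cardiac muscle the pump sets the sodium gradient that drives calcium out of the cell through the sodium-calcium exchanger.

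No gap junction or pump gene passed the test between genotypes. Of the 8 genes, 6 were above background on all 4 arrays, and Gja5 and Atp1b2 were not measurably above it. Gja1 and Gjc1 lay lower in the knockout and Gja4, Atp1b1 and Fxyd1 higher, while Fxyd5 differed least. These log2 fold changes ranged from -0.26 for Gja1 to 0.21 for Atp1b1. In both of these genes the wild-type arrays differed from each other by more than the genotypes did.

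The whole array set gives the scale for these values. Limma tested 15955 genes, of which 0% passed at an adjusted p under 0.05. The smallest adjusted p was 0.369, and 6.74% had an unadjusted p under 0.05, with 3.67% higher and 3.08% lower in the knockout. That split of 585 higher and 491 lower genes was 397 and 676 with median scaling, 718 and 415 with scaling to the 75th percentile and 217 and 462 with the authors' deposited table as the source. A spot counted as above background past the 95th percentile of all blank and negative control spots on its array, a threshold of 80.8 to 91.5 units, and 76.3% to 83.2% of the probes did. The labels could not be checked on Trpc6, since its probe was below the threshold on all 4 arrays. In the scanner headers the slope of the line between the first and second gain was 0.478 on both knockout arrays, and 0.504 and 0.519 on the wild-type arrays. Whatever these slopes reflect cannot be told apart from genotype.

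The tissue label was checked against marker genes. All 8 markers of ventricular cardiomyocytes, among them Myh6, Myl2 and Tnnt2, were above background on every array, with a median spot signal of 296 times the threshold. Markers of other cell types were measured as well. The 6 fibroblast markers summed to 4285 and 4045 normalized units in wild type and to 3594 and 3090 in the knockout. Dcn, a matrix proteoglycan, carried that fall with 2885 and 2897 against 2369 and 1840, and the other 5 markers summed to 1400 and 1148 against 1225 and 1251, where the groups overlapped. The 6 endothelial markers summed to 1059 and 1050 against 999 and 1035. The 7 markers of smooth muscle and pericytes summed to 2545 and 2478 against 3092 and 2458. Ventricular cardiomyocyte markers summed to 195243 and 191656 in wild type against 198839 and 201477, with 4 of the 8 higher and 4 lower in the knockout. Among them Actc1, Myl2 and Tnnt2 held the same normalized values on every array, in another order only on the second wild-type array. Quantile normalization thus fixed their part of the sum, and their directions were swaps of rank. The 3 red cell markers summed to 621 on the first wild-type array, 1515 on the second and 1838 and 1904 in the knockout. Each was higher in the knockout without overlap, beside 19.4% of all genes tested. The globin genes Hba-a2 and Hbb-bt made the low first array, at 8.73 and 7.01 against 10.17 and 8.19 on the second. Alas2 read 6.08 and 6.15 in wild type against 6.23 and 6.24, with an unadjusted limma p of 0.0372 and an adjusted p of 0.727. Atrial markers, 3 of them measured, gave 3430 and 3435 against 4232 and 6382, with 1 higher and 2 lower in the knockout. Nppa carried that rise, with a log2 fold change of 0.64 ± 0.21. Myl4 was at -0.45 ± 0.37 and Myl7 at -0.00031 ± 0.074, both with overlapping groups. Markers of glia gave 178 and 179 against 183 and 181, those of fat cells 272 and 270 against 275 and 265, and those of mesothelium 252 and 259 against 264 and 263. Lep, a fat cell marker, and Lrrn4, a mesothelial one, were below background on all 4 arrays but are in these sums. For the conduction system, 3 of 4 markers were above background on all arrays, with sums of 261 and 262 against 269 and 268. Hcn4, the pacemaker channel gene, was below it on all 4 and is in those sums. The median spot signal was 1.07 times the threshold for fat cell markers, 1.12 for mesothelial and 1.15 for conduction markers. Since the normexp offset of 50 also raises probes without signal, the sums of these cell types carry a high floor. In whole tissue, fewer cells of a type and less RNA per cell cannot be told apart.

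Gja1 encodes Cx43, the main connexin of working ventricular myocytes, which is also made by cardiac fibroblasts. Its spot medians were 3940 units on the first and 2851 units on the second wild-type array. On the knockout arrays, in the same order, they were 2916 and 2445 units. The first wild-type array stood above the other 3 and the second lay between the knockout arrays, so that the groups overlapped. The normalized log2 intensities were 11.99 and 11.35 against 11.50 and 11.32 in the same order, with means of 11.67 ± 0.45 and 11.41 ± 0.13 (SD, n = 2 each). The log2 fold change was -0.26 ± 0.23 (limma standard error), with a 95% interval of -0.86 to 0.34, an unadjusted limma p of 0.312 and an adjusted p of 0.869. That interval holds both lower and higher Gja1 levels in the knockout.

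A single array set the direction for Gja1. Without the first wild-type array the log2 fold change was 0.062, and without the second it was -0.58, with an unadjusted limma p of 0.00326 and an adjusted p of 0.650. The difference of 0.64 between the wild-type arrays was larger than in 99.6% of the genes tested, most of which were dim and therefore narrowed by the normexp offset. That of 0.18 between the knockout arrays was larger than in 93.2% of them. Of the 6 fibroblast markers 4 lay lower and 2 higher in the knockout. The 1 with an unadjusted limma p under 0.05, beside 6.74% of all genes tested, was Dcn, at -0.47 ± 0.13 with a p of 0.0172 and an adjusted p of 0.727. Dcn read 11.49 and 11.50 in wild type against 11.21 and 10.85, without the single high array of Gja1. Tcf21, a fibroblast transcription factor named here for its likeness to Gja1, read 7.34 on the first wild-type array while the other 3 gave 6.82 to 6.98. Col1a1, a collagen gene, was highest on the second knockout array, and Col1a2, Lum and Pdgfra were highest on the first wild-type array. The part of fibroblasts, or of the lower red cell signal on that array, in the Gja1 values was not tested.

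Gja5 encodes Cx40, the connexin of atrial myocytes, the fast-conducting Purkinje system and arterial endothelium. The probe read 81.8 and 90.1 units in wild type and 84.3 and 83.0 units in the knockout. On the first wild-type array this was 0.947 units above the threshold, and on the other 3 arrays it was 0.391 to 1.38 units below it. Gja5 was therefore above background on 1 of 4 arrays and no fold change is given. In the authors' deposited table it has 1 value, 3.3 units on the first wild-type array.

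Gja4 encodes Cx37, a connexin of arterial endothelium. Spot medians read 111 and 124 units in wild type and 117 and 118 units in the knockout, and on this scale the wild-type arrays enclosed the knockout ones. After normalization the wild-type values were 6.41 and 6.44 and the knockout values 6.50 and 6.51, and the groups no longer overlapped. The log2 fold change was 0.080 ± 0.038, or 5.71% higher, with a 95% interval of -0.022 to 0.18, an unadjusted limma p of 0.0964 and an adjusted p of 0.776. Its spots lay only 29.8 to 34.7 units above the threshold, and the size of the difference depended on the processing. The log2 fold change was 0.066 with median scaling, 0.13 at a normexp offset of 16, 0.19 at an offset of 0 and 0.19 from the authors' deposited table. With local background subtracted it was 0.19, with an unadjusted limma p of 0.0403 and an adjusted p of 0.590. The sign was the same in 15 of 15 alternatives. The authors' deposited table gives 31.6 and 29.4 units in wild type and 32.3 and 37.6 units in the knockout, a ratio of 1.15.

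Markers of arterial endothelium were set beside Gja4. All 6 of them, including Sox17, Hey1 and Dll4, were above background on every array, and they summed to 527 and 560 normalized units in wild type against 556 and 585. Of the 6, 4 lay higher and 2 lower in the knockout, and 0 had an unadjusted limma p under 0.05. The share of such cells in the Gja4 values was not tested.

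Gjc1 encodes Cx45, a connexin of nodal and conducting myocytes and of vascular smooth muscle. The spot medians of Gjc1 were 237 and 259 units in wild type and 208 and 221 units in the knockout, so that both knockout arrays lay below both wild-type arrays. The normalized log2 values were 7.72 and 7.73 against 7.54 and 7.62, with means of 7.73 ± 0.0060 and 7.58 ± 0.058 (SD, n = 2 each). Gjc1 was the 1 gene of the 8 with an unadjusted limma p under 0.05. Its log2 fold change was -0.15 ± 0.046, or -9.80%, with a 95% interval of -0.27 to -0.027, an unadjusted p of 0.0268 and an adjusted p of 0.727. Over all genes 3.08% were lower at that unadjusted p, and 562 genes had a smaller p than Gjc1 had.

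The Gjc1 difference kept its sign without any 1 of the arrays, with log2 fold changes of -0.19 to -0.11 and unadjusted limma p-values of 0.0362 to 0.141. It was close to 0, at 0.023, when the local background of each spot was subtracted. With all arrays kept, the unadjusted limma p was 0.0667 at a normexp offset of 16 and 0.164 at an offset of 0. It was 0.119 with the trend and robust variance model and 0.453 from the authors' deposited table. With the other scalings, filters, mean of probes and replicate block it stayed under 0.05. In the authors' deposited table Gjc1 had 155.8 and 138.4 units in wild type and 119.3 and 142.8 units in the knockout, where the groups overlapped. Of the 7 smooth muscle and pericyte markers 5 lay lower and 2 higher, 0 of them with an unadjusted limma p under 0.05. Their log2 fold changes ran from -0.20 ± 0.15 for Rgs5 to 0.31 ± 0.17 for Acta2, with a median of -0.0030. Acta2 was the 1 marker of the 7 whose groups did not overlap, beside 36.8% of all genes tested. The 3 tested markers of the conduction system lay higher, opposite to Gjc1, with Cntn2 at 0.055, Tbx3 at 0.057 and Irx3 at 0.045. Their groups did not overlap, beside 19.4% of all genes higher without overlap, and 0 had an unadjusted limma p under 0.05. With Hcn4, the conduction markers had a median spot signal of only 1.15 times the threshold. The part of either cell type in the Gjc1 values was not tested.

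**Figure D1:**
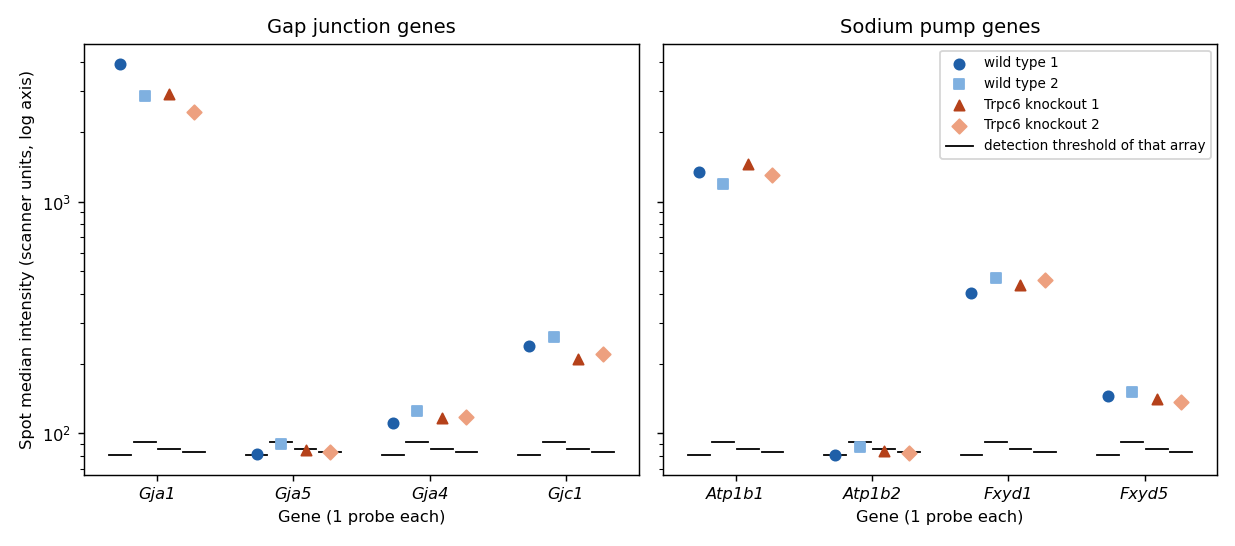
Spot median intensity in scanner units on a log axis for the 4 gap junction genes (left) and the 4 sodium pump genes (right), with 1 point per array and a black bar at the detection threshold of that array. Gja5 and Atp1b2 sit at the bars, and the first wild-type array stands above the others for Gja1 at 3940 units.

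Atp1b1 encodes the beta subunit that is the usual partner of the catalytic subunit in cardiac myocytes and brings the pump to the cell surface. On the spot scale it read 1338 and 1190 units in wild type and 1447 and 1305 units in the knockout. The second wild-type array was the lowest and the first lay between the knockout arrays, so that the groups overlapped. The normalized log2 values were 10.39 and 10.06 against 10.50 and 10.37, with means of 10.22 ± 0.23 and 10.43 ± 0.095 (SD, n = 2 each). The log2 fold change was 0.21 ± 0.12, or 15.6% higher, with a 95% interval of -0.12 to 0.54, an unadjusted limma p of 0.161 and an adjusted p of 0.802.

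The size of the Atp1b1 difference depended on the second wild-type array and on the background correction. Without it the log2 fold change was 0.043, and without the first wild-type array it was 0.37, with an unadjusted limma p of 0.00730 and an adjusted p of 0.194. With either knockout array left out it was 0.14 or 0.28. When the local background of each spot was subtracted it was 0.00069 ± 0.85, with an unadjusted limma p of 0.999. The authors' deposited table gives 1237.4 and 888.8 units in wild type and 1295.9 and 1252.1 units in the knockout, which do not overlap, and their means have a ratio of 1.20.

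Atp1b2 encodes a beta subunit that is best known from glia, where it also acts in adhesion. Spots read 80.4 and 86.9 units in wild type and 84.1 and 82.5 units in the knockout, below the threshold on each of the 4 arrays by 0.405 to 4.55 units. No fold change is given. The authors' deposited table lists it once, at 1.9 units on the first wild-type array.

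Fxyd1 encodes phospholemman, the FXYD protein of cardiac muscle, which restrains the pump until it is phosphorylated. Its spot medians were 403 and 468 units in wild type and 435 and 459 units in the knockout, with the wild-type arrays at both ends. Normalization placed the second wild-type array below the knockout arrays, with 8.57 and 8.67 for wild type against 8.71 and 8.79. The log2 fold change was 0.13 ± 0.058, or 9.43% higher, with a 95% interval of -0.023 to 0.28, an unadjusted limma p of 0.0799 and an adjusted p of 0.761. In the authors' deposited table the values were 318.4 and 307.1 units against 334.7 and 386.4 units, a ratio of 1.15 without overlap.

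Without 1 array at a time the log2 fold change of Fxyd1 stayed between 0.079 and 0.18. With local background subtracted it was -0.14. The sign for Fxyd1 therefore held for each array left out and turned with that background correction. The summed cardiomyocyte markers, like Fxyd1, were higher on both knockout arrays than on both wild-type arrays, with 4 markers higher and 4 lower. Myl3, a myosin light chain, made up most of that, at 30157 and 26078 units against 32025 and 34001. It was the 1 marker of the 8 with an unadjusted limma p under 0.05, beside 6.74% of all genes tested. The other 7 summed to 165085 and 165578 against 166815 and 167476. In that sum Actc1, Myl2 and Tnnt2 shared the normalized log2 values 15.51, 15.37 and 15.25 on every array. Quantile normalization fixed their part, so the sum cannot show whether cardiomyocyte content differed. The part of cardiomyocytes in the Fxyd1 values was not tested.

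Fxyd5 encodes dysadherin, an FXYD protein with a long extracellular part that is known for weakening cell adhesion and is made by epithelial, endothelial and immune cells. The Fxyd5 spots read 144 and 151 units in wild type and 141 and 136 units in the knockout, both knockout arrays lying lower. After normalization, at 6.89 and 6.80 against 6.86 and 6.78, the groups overlapped. The log2 fold change was -0.024 ± 0.054, with a 95% interval of -0.17 to 0.12, an unadjusted limma p of 0.675 and an adjusted p of 0.958. The 7 immune markers summed to 1477 and 1285 normalized units in wild type against 1425 and 1680. Lyz2, lysozyme of macrophages, gave 998 and 833 of those units in wild type against 957 and 1216, and the other 6 summed to 478 and 452 against 468 and 464. The part of immune cells in the Fxyd5 values was not tested.

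**Figure D2:**
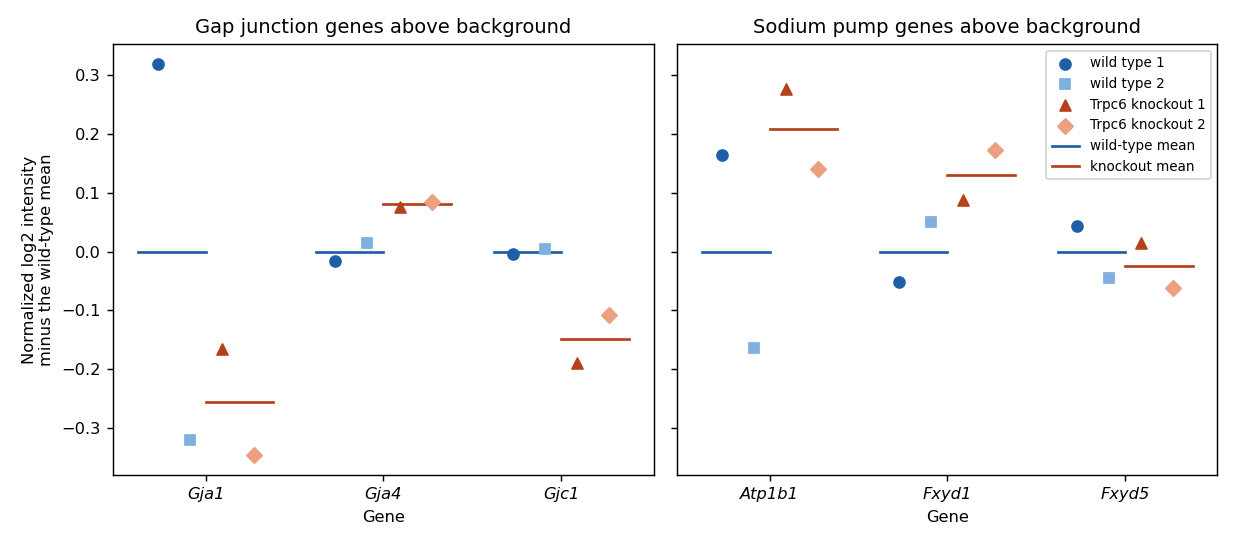
Normalized log2 intensity of each array minus the wild-type mean of that gene, for the 6 genes above background, with horizontal lines at the group means. The groups overlap for Gja1, Atp1b1 and Fxyd5 and do not for Gja4, Gjc1 and Fxyd1, and the widest spread is that of Gja1 in wild type.

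Whether the groups overlapped depended on the scale. On normalized log2 values 3 of the 6 measurable genes had groups that did not overlap, 2 of them higher and 1 lower in the knockout, beside 36.8% of all genes tested. Over all genes 19.4% were higher and 17.4% lower without overlap. On spot medians 2 of the 6 did not overlap, Gjc1 and Fxyd5, both lower, beside 22.3% of all genes tested in either direction and 19.9% lower. The authors' deposited table separated Gja4, Atp1b1 and Fxyd1, which is 3 of the 6, all higher. On that scale 28.3% of the 14852 tested genes with a value on every array did not overlap, and 11.7% were higher without overlap. The second wild-type array had the highest blank spot median, at 87.5 units against 78.4 to 82.8 on the others, and its spot medians carry that higher floor. With the blank median of each array subtracted, the same 2 of the 6 did not overlap, both still lower. Gjc1 then stood at 159 and 172 units against 126 and 140, and Fxyd5 at 65.8 and 63.7 against 58.1 and 55.2. The share of all genes was not counted on that scale. An exact permutation of 2 against 2 arrays cannot give a two-sided p below 0.333 for a single gene.

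The local background of these arrays followed the spot signal and in places exceeded it. For Gja1 it was 4340 units around a spot of 3940 on the first wild-type array and 2684 units around a spot of 2445 on the second knockout array, and 1465 units around a spot of 2916 on the first knockout array. For Gjc1 the spot stood at 2.20 times its local background on the first knockout array and at 1.26 to 1.61 times on the other 3. For Atp1b1 that ratio was 1.11 and 2.14 against 1.72 and 1.10. These ratios of Gja1, Gjc1 and Atp1b1 did not sort by genotype, and for Gja1 subtraction turned the log2 fold change to 1.40 ± 2.00. For both FXYD genes the wild-type ratios were the higher ones, for Fxyd1 with 2.03 and 2.35 against 1.76 and 1.79 and for Fxyd5 with 1.42 and 1.46 against 1.08 and 1.14. The share of all genes that split by genotype on this ratio was not counted. The split can therefore not be called a trait of the FXYD genes. After subtraction the Fxyd5 log2 fold change was -0.46 ± 0.094, with an unadjusted limma p of 0.0133 and an adjusted p of 0.483.

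**Figure D3:**
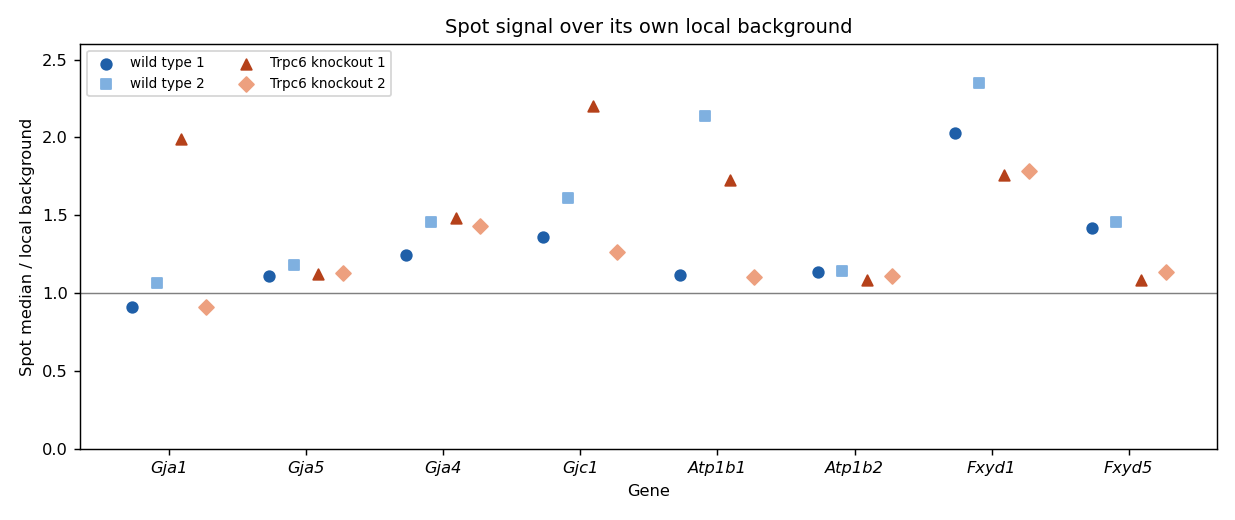
Spot median divided by the local background median of the same spot, with 1 point per array and a grey line at a ratio of 1. Gja1 lies below the line on the first wild-type and the second knockout array, and for Fxyd1 and Fxyd5 both wild-type ratios exceed both knockout ratios. The share of all genes with such a split was not counted.

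**Figure D4:**
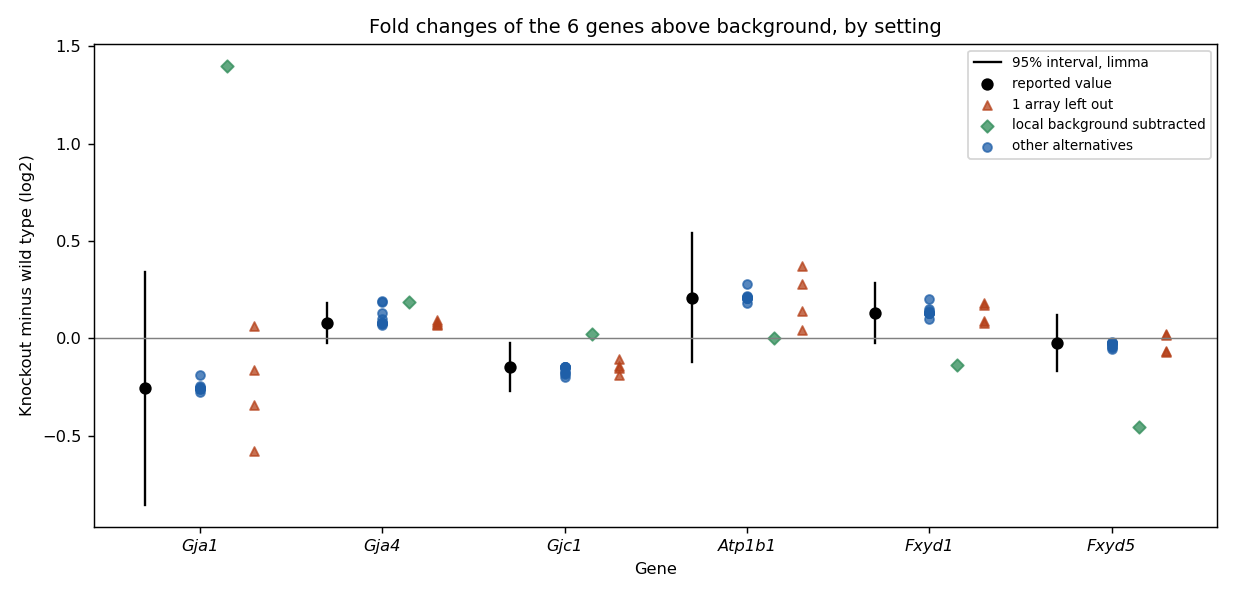
Knockout minus wild type on the log2 scale for the 6 genes above background. Black points and bars are the reported value and its 95% limma interval, triangles leave out 1 array, diamonds subtract local background and circles are the other alternatives; for Gja1 the triangles spread from -0.58 to 0.062 and the diamond lies at 1.40.

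Other genes of the same families were counted from a list. Of 19 further connexin and pannexin genes, 15 had a probe with a symbol and 9 were tested, 5 of them higher and 4 lower in the knockout, with a median log2 fold change of 0.019 beside 0.0017 over all genes. None of the 9 had an unadjusted limma p under 0.05. Gjb5, an epithelial connexin, had the smallest, at 0.0759. It read 93.5 and 108 units in wild type against 94.2 and 86.9 units, for a log2 fold change of -0.16 ± 0.069. Near the threshold this size depended on the processing, at -0.055 with local background subtracted, -0.33 at a normexp offset of 16, -0.71 at an offset of 0 and -0.97 from the authors' deposited table. With the second knockout array left out it was -0.080, and with the first left out -0.24. The unadjusted limma p was under 0.05 in 5 of 15 alternatives. Panx2, a pannexin of large-pore channels, was at -0.060 ± 0.049, Gjb1 at -0.045 ± 0.040 (0.021 with scaling to the 75th percentile) and Gja6 at 0.037 ± 0.038.

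On the GRCm38.p6 assembly Gja4 and Gjb5 lie near each other. The log2 fold change of Gjb5 had the opposite sign to the 0.080 of Gja4. Fxyd1 and Fxyd5 share a cluster with Fxyd7 and Fxyd3. Fxyd3 was below background on all 4 arrays, and Fxyd7 was at -0.031 ± 0.039, close to Fxyd5 and opposite in sign to Fxyd1, though at 0.013 with scaling to the 75th percentile.

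Of 11 further pump genes, 8 had a probe with a symbol and 7 were tested, 3 higher and 4 lower in the knockout, with a median log2 fold change of -0.015 and 0 with an unadjusted limma p under 0.05. Atp1b3, a widely made beta subunit, had spot medians of 385 and 410 units in wild type and 389 and 376 units in the knockout, which overlapped, and a log2 fold change of 0.025 ± 0.043, which was -0.0032 with median scaling. Atp1b4, a muscle protein related to the beta subunits, was at 0.067 ± 0.053 and Fxyd2, known from the kidney pump, at -0.056 ± 0.044. Atp1a4, the alpha subunit of sperm, was at 0.031 ± 0.039.

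**Figure D5:**
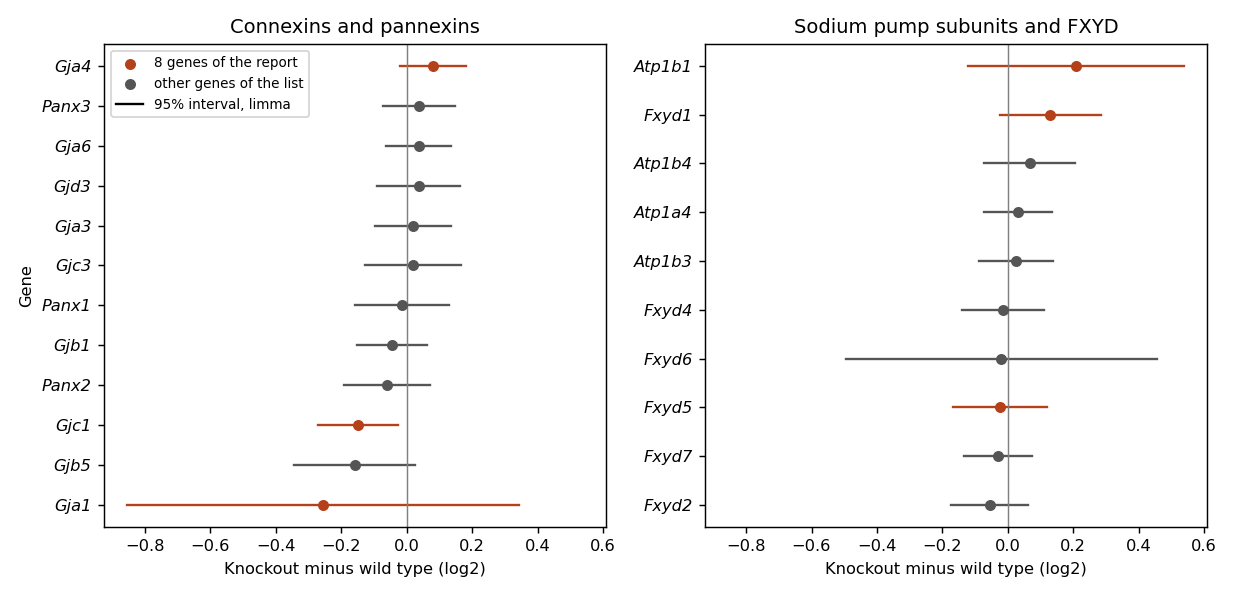
Knockout minus wild type on the log2 scale with 95% limma intervals for the connexin and pannexin genes (left) and the sodium pump genes (right) that were tested, the 8 genes of the report in red where measurable. The interval of Gjc1, from -0.27 to -0.027, is the only one in either panel that leaves out 0.

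Genes that work beside the gap junctions at the intercalated disc were read from a further list. Of 18 such genes 16 were tested, 6 higher and 10 lower in the knockout, with a median log2 fold change of -0.010. The 1 gene with an unadjusted limma p under 0.05 was Pkp2, plakophilin of cardiac desmosomes, and it was lower. Over all genes tested 6.74% had such a p in either direction, and 3.08% were lower. Pkp2 read 599 and 713 units in wild type and 518 and 565 units without Trpc6, without overlap. On spot medians 19.9% of all genes tested were lower without overlap. The log2 fold change of Pkp2 was -0.20 ± 0.072, with an unadjusted limma p of 0.0454 and an adjusted p of 0.734. That unadjusted p was under 0.05 in 8 of 15 alternatives, and with local background subtracted the log2 fold change was -0.037, with a p of 0.884. Cxadr, a junction protein that also serves as a virus receptor, and Dsg2, a desmosomal cadherin, were at -0.098 ± 0.037 and -0.10 ± 0.045. Tjp1, the scaffold that binds the Gja1 protein, was at 0.014 ± 0.039, or -0.017 with median scaling, with overlapping normalized values.

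Of 13 genes that move or anchor sodium transport beside the pump, 8 were tested, 2 higher and 6 lower in the knockout, with a median log2 fold change of -0.056. Slc20a2, a sodium-phosphate cotransporter, had spot medians of 260 and 282 units in wild type and 302 and 318 units in the knockout. Its log2 fold change was 0.31 ± 0.046, with an unadjusted limma p of 0.00155 and an adjusted p of 0.727. Without any 1 array it stayed between 0.27 and 0.35, and with local background subtracted it was -0.090. Slc12a2, the sodium-potassium-chloride cotransporter, was at -0.13 ± 0.047, with an unadjusted limma p of 0.0438 and an adjusted p of 0.728. That unadjusted p was 0.0373 with median scaling, 0.0747 at a normexp offset of 16 and 0.365 from the authors' deposited table. Slc4a4, a sodium-bicarbonate cotransporter, was at -0.11 ± 0.051. The sodium-calcium exchanger gene Slc8a1, named here after its value was seen, was at 0.087 ± 0.070.

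The genes whose profiles over the 4 arrays lay nearest to the widest-ranging gap junction and pump genes were found by the Euclidean distance between mean-centred normalized log2 values, among 14527 genes above background on all arrays. For Gja1 they were Canx, a chaperone of the endoplasmic reticulum, at a distance of 0.13, Bcl6b at 0.16 and Tcf21 at 0.17. Canx read 9.67 on the first wild-type array while the other 3 gave 9.05 to 9.18, which is the pattern of Gja1. For Atp1b1 they were Ak1, adenylate kinase, at a distance of 0.039, Mtor at 0.041 and Cgrrf1 at 0.044. Ak1 read 9.80 and 9.47 in wild type against 9.87 and 9.78, low on the second wild-type array as Atp1b1 was. With 4 arrays and this many genes, near profiles are a description.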

How the data were processed

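Per the file headers, the deposited scanner files give the spot and local background medians at 635 nm as linear intensity. The rule that joined the 3 scanner gains is not stated there. A second deposited table, of intensity processed by the authors, is a straight line of the spot medians on each array (a constant of 78.4 to 87.7 units subtracted, then scaled by 0.807 to 1.02 to a median of 25), with cells of dim probes empty.

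Spot medians were corrected with normexp (offset 50, fitted on all spots) in limma 3.58.1 under R 4.3.3, without local background, averaged per probe and quantile normalized as log2. This offset narrows the fold changes of dim probes. Of 23473 probes, 19117 were above background on at least 2 arrays, which gave 15955 genes by the brightest probe. Genotypes were compared by lmFit and eBayes (two-sided, 2 residual and 2.49 prior degrees of freedom) with Benjamini-Hochberg adjustment across all tested genes and a threshold of 0.05. Errors with fold changes are limma standard errors. The step was tested on simulated data.

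The 8 genes and the lists were chosen with earlier results of these data known. Named from the lists were up to 4 (families) or 3 (other lists) genes with the smallest p, with Atp1b3 and Tjp1 in any case, and the 3 genes nearest in profile to the widest-ranging gap junction and pump genes. Markers of 12 cell types were summed as normalized linear values. Single markers named in the text, and those whose part in a sum is given, were chosen after their values were seen. Alternatives changed background correction, normalization, filter, source of values, probe choice, variance model and pairing, or left out 1 array.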

Additional observations from a re-analysis of the deposited data

How the results depend on the processing

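Under 15 alternatives the limma count of genes with an adjusted p under 0.05 stayed at 0, with 1076 genes at an unadjusted p under 0.05. That number was 444 without the second knockout array, 2338 without the first wild-type array and 679 from the authors' table, and 886 to 1290 otherwise. With the replicate block the count at an adjusted p under 0.05 was also 0, and 1148 genes had an unadjusted p under 0.05. As no gene was called without the block, it had no call to take away. It moved the unadjusted limma p of Atp1b1 from 0.161 to 0.0320 and that of Fxyd1 from 0.0799 to 0.0451, with adjusted p-values of 0.684 and 0.691. For Gja4 that p rose from 0.0964 to 0.154, and for Gjc1 from 0.0268 to 0.0368. The replicate numbers were not shown to pair the arrays, as the deviations within the genotypes correlated at 0.0967 over genes. Of 90 alternative values of the 6 measurable genes 6 changed sign. With local background subtracted Gja1 was at 1.40, Gjc1 at 0.023 and Fxyd1 at -0.14, Atp1b1 fell to 0.00069, and Panx2, Fxyd7 and Slc20a2 were at 0.013, 0.10 and -0.090. With 1 array left out Gja1 ranged from -0.58 to 0.062, Fxyd5 from -0.068 to 0.020 and Tjp1 from -5.71e-05 to 0.028. With scaling to the 75th percentile, which moved the median of all genes to 0.039, Gjb1 was at 0.021 and Fxyd7 at 0.013, and with median scaling Atp1b3 was at -0.0032 and Tjp1 at -0.017. The causes were not tested. The 99th percentile of control spots gave each of the 8 genes the same number of arrays above background as the 95th. Against its own local background Gja1 was above on 2 arrays, and Gja5 and Atp1b2 on 4. Low signal over background limits Gja4, Gja5 and Atp1b2.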
